A study of Tremella fuciformis and Annulohypoxylon stygium and Tremella fuciformis
Annulohypoxylon stygium with 5 samples.

Results

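Sequences named after transposons and reverse transcriptases were followed in mycelia of 2 fungi that are grown together, the white jelly fungus Tremella fuciformis, a basidiomycete, and the ascomycete Annulohypoxylon stygium. The deposited table holds 42507 transcript sequences, which it calls unigenes. Of these, 66 were members, because their SwissProt hit with an e-value of at most 1e-20 or their Nr hit carried a word such as transposon, transposase, reverse transcriptase, Pol polyprotein, copia or Gag-Pol. SwissProt alone chose 13 of them, Nr alone 40, and both 13. The last members inside the SwissProt limit were CL7108.Contig2 (2.4e-21) and CL277.Contig4 (8.3e-21), and the nearest sequences outside it that were no members were Unigene2942 (1.2e-19) and Unigene2932 (3.4e-16). Inside, CL277.Contig4 had 20.2 FPKM (fragments per kilobase of sequence, scaled to the size of the library) in T. fuciformis alone, and outside, Unigene2942 had 4.10 FPKM and Unigene2932 had 15.3 FPKM.

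All 5 libraries came from wild type mycelia, with 1 library for each condition. T. fuciformis was taken alone at 2 weeks of age and at 1 week after it had met A. stygium. A. stygium was taken alone at 1 week of age and at 1 week after it had met T. fuciformis, and a dual library was made from mycelia of both, again 1 week after contact. The labels give neither the total age of the mycelia after contact nor whether a library pooled several cultures, so age and contact cannot be told apart.

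Retrotransposons are copied through an RNA that their own reverse transcriptase turns back into DNA. Those with long terminal repeats encode Gag, which forms a particle around the RNA, and Pol, a polyprotein with protease, integrase and reverse transcriptase parts. The Ty1/copia and Ty3/gypsy groups differ in the order of these parts, and Tf2 of fission yeast belongs to the latter. DNA transposons instead move by a transposase that cuts and joins DNA. Fungi are known to hold such elements down by RNA silencing, heterochromatin and, in some species, methylation of DNA. A transcript with such a name is not a measure of movement of the element.

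Each unigene was assigned by its peak FPKM in the single-fungus libraries, which had to reach 1 in a fungus and be at least 10-fold that in the partner. By this rule 30 members belonged to T. fuciformis and 19 to A. stygium, and 0 were shared. The other 17 stayed below 1 FPKM in all 4 single-fungus libraries and were given no fungus. Members with a mean of at least 10 FPKM over the 3 libraries of their fungus are called abundant, 12 in T. fuciformis and 6 in A. stygium. The classes of the elements differed between the fungi. T. fuciformis had 16 members of Ty1/copia type and 10 of Ty3/Tf2 type, and A. stygium had 0 and 3. Among Ty3/Tf2-type members of T. fuciformis, 6 had the family's name in a hit, 2 had only an InterPro family of that type, and 2 had only the Nr name retrotransposon nucleocapsid protein. Their nearest Nr hit lay in Tremellomycetes, the class of T. fuciformis, for 10 of 10, and for 14 of 16 Ty1/copia-type members. Contigs of 1 assembly cluster are close variants that may share reads, and the 16 Ty1/copia-type members came from 11 clusters and the 10 of Ty3/Tf2 type from 7.

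The libraries had summed FPKM between 524250 and 657997. Unigenes of T. fuciformis made up 36.4% of the dual library and those of A. stygium 59.0%, so FPKM was rescaled to a total of 1e+06 per fungus and library before ratios were taken, which raised values of the dual library by 2.91 times in T. fuciformis and 1.47 times in A. stygium relative to the library grown alone. Ratios are log2 of rescaled FPKM with a pseudocount of 1, which understates differences of low members, and were taken where either library reached 1 FPKM. With 1 library for each condition no test was possible, and the values describe these libraries. The dual library stood apart: 1619 unigenes had at least 1 FPKM in it and were listed at 0 in the other 4, against 242 to 494 for each of the others. The number of reads behind a value is not known. Among low values the commonest ratio between any 2 libraries was within 0.1 of 0 on the log2 scale. That value was held by 17 to 195 unigenes per pair of libraries, so similar depth is inferred and was not measured. Each fungus had only its share of the depth of the dual library.

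In T. fuciformis, the Ty1/copia-type members were mostly abundant, 10 of 16, and 15 of 16 were within 2-fold of their level alone after interaction and 14 of 16 in the dual library. All 10 Ty3/Tf2-type members were low, and each was higher after interaction and in the dual library than alone. For 7 of the 10 the direction after interaction was fixed by their selection, because they were below 1 FPKM alone and were assigned to the fungus only by reaching 1 FPKM after interaction. This held for 1 of the 16 Ty1/copia-type members. Summed over members, Ty1/copia-type sequences had 936 FPKM alone, 1038 FPKM upon interaction and 258 FPKM in the dual library, which was 0.147%, 0.159% and 0.118% of the fungus's own FPKM. Ty3/Tf2-type sequences had 7.20, 22.7 and 78.5 FPKM, or 0.00113%, 0.00348% and 0.0360%. The ratio of these shares to that alone on the log2 scale was 1.62 after interaction and 4.99 in the dual library for the Ty3/Tf2 type, against 0.11 and -0.31 for the Ty1/copia type. The 3 Ty3/Tf2-type members with at least 1 FPKM alone summed to 5.20, 11.7 and 7.13 FPKM, ratios of 1.13 and 2.0, and the 7 below it to 2.0, 11.0 and 71.4 FPKM. The class sum in the dual library thus rests largely on members selected through the interaction library, and no difference between the classes was tested.

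**Figure D1:**
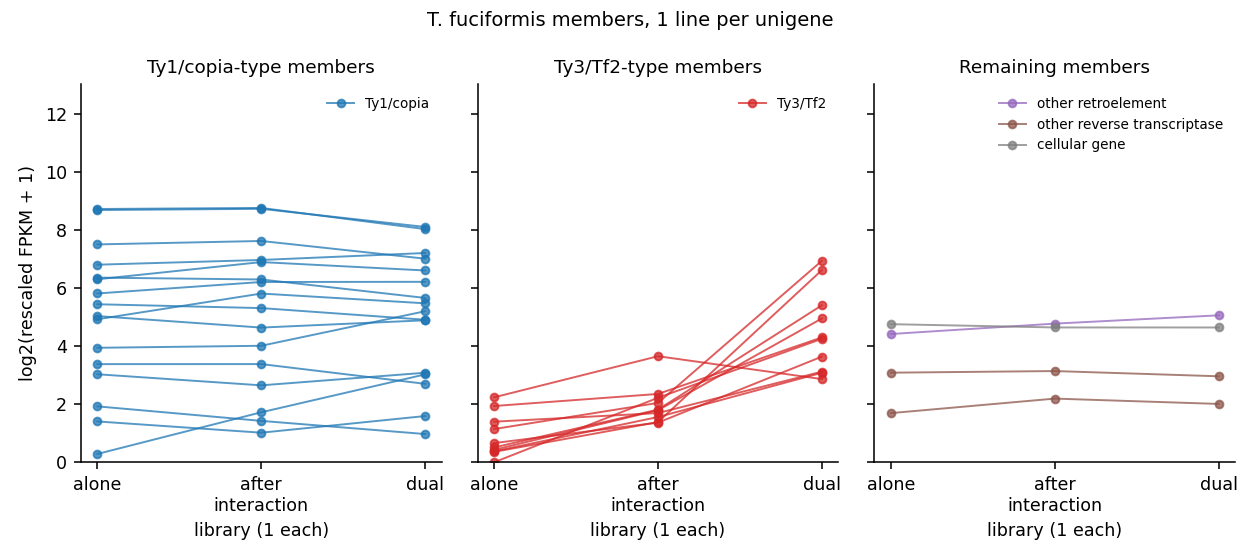
Level of each of the 30 T. fuciformis members in its 3 libraries, as log2 of rescaled FPKM plus 1. Each line is 1 unigene and each point 1 library, in panels for 16 Ty1/copia-type, 10 Ty3/Tf2-type and 4 remaining members. Ty1/copia-type lines are mostly flat, and Ty3/Tf2-type lines start low and end higher in the dual library, except Unigene4718, which is highest after interaction.

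The most abundant members of T. fuciformis were contigs of the cluster CL134, whose hits are Gag-Pol polyproteins of other basidiomycetes and Ty4 and Ty5 of baker's yeast. CL134.Contig5 had 267 FPKM alone and 281 FPKM upon interaction, and in the dual library 56.6 FPKM. CL134.Contig1 had 260.4, 275 and 59.6 FPKM. Both were close to level between alone and interaction and lower in the dual library, with ratios of -0.69 and -0.58. CL134.Contig9 had 114, 127 and 27.8 FPKM, and CL134.Contig8 had 51.4, 50.4 and 10.8 FPKM. CL134.Contig2, with a reverse transcriptase domain, had 70.2, 80.7 and 31.9 FPKM, and was the member of this cluster with a ratio above 0 in the dual library, 0.40. The 9 contigs of the cluster, 4 of which were not members, summed to 1148, 1207 and 288.6 FPKM, ratios of 0.04 and -0.45.

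Other abundant Ty1/copia-type members were higher after interaction, though within 2-fold. CL5376.Contig2, a Ty4-like Gag-Pol sequence, had 49.4 FPKM alone, 76.7 FPKM upon interaction and 21.0 FPKM in the dual library. Unigene4427, with the same closest hits, had 18.7, 35.9 and 9.46 FPKM, a ratio of 0.88 after interaction, the largest of any abundant member of T. fuciformis. Unigene4373, named after a copia-like polyprotein, had 35.0, 47.5 and 15.9 FPKM. CL1352.Contig9 (27.0, 25.2 and 6.32 FPKM) and CL277.Contig4 (20.2, 15.6 and 6.24 FPKM) were lower, with ratios of -0.13 and -0.40 after interaction. Of the 12 abundant members of T. fuciformis in all classes, 0 were past 4-fold in either library, where 0.84% and 2.53% of its abundant unigenes were past 4-fold upward and 0.0542% and 0.691% downward.

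The 6 low Ty1/copia-type members went several ways. Unigene9350, a Gag-Pol sequence, had 0.14 FPKM alone and 1.5 FPKM upon interaction, and in the dual library 1.56 FPKM, and its ratio of 2.74 in the dual library was the only one of this class past 4-fold. Unigene13098, with an integrase core domain, had 9.13, 9.86 and 7.80 FPKM and was 1.26 higher in the dual library. Unigene11557, one of a pair whose nearest hit is a T. fuciformis sequence named rve, a name of the integrase core domain, had 1.78, 1.10 and 0.21 FPKM. The other of that pair, Unigene13709, had 1.05, 0.67 and 0.44 FPKM. CL277.Contig1 (5.98, 6.14 and 1.20 FPKM) and Unigene13917 (4.56, 3.44 and 1.63 FPKM) had dual ratios of -0.68 and 0.05.

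Among Ty3/Tf2-type members the highest level was that of CL1085.Contig4, a retrotransposon nucleocapsid sequence with 0.77 FPKM alone, 2.04 FPKM upon interaction and 26.5 FPKM in the dual library. Its ratios were 0.90 and 5.79. Unigene19097, with the same Nr name, had 0.18, 1.05 and 21.2 FPKM, ratios of 1.02 and 6.26. CL1008.Contig1, a Tf2-like polyprotein with an aspartyl protease domain, had 0.27, 1.64 and 9.04 FPKM, and CL1008.Contig3 had 0.22, 1.61 and 6.54 FPKM. In these 4 the dual library was far above both T. fuciformis libraries, by 3.16 to 5.23 on the log2 scale relative to interaction. The cluster CL1085 had 3 contigs assigned to T. fuciformis, of which 1 was a member. They summed to 4.30, 14.2 and 53.1 FPKM, ratios of 1.56 and 4.98, so the cluster was above 1 FPKM alone.

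The remaining 6 stayed below 5 FPKM in the dual library. Unigene18718 was listed at 0 alone, with 2.39 FPKM upon interaction and 3.94 FPKM in the dual library. CL7108.Contig4 had 0.37, 1.03 and 2.50 FPKM, and CL7108.Contig1 had 0.19, 1.27 and 1.63 FPKM. Each of these was below 1 FPKM alone. The others reached 1 FPKM in every T. fuciformis library. CL7108.Contig6 had 1.80, 2.68 and 4.08 FPKM, with a dual ratio of 2.36, and Unigene18086 had 1.04, 1.46 and 1.68 FPKM, with a dual ratio of 1.72. Unigene4718, a Tf2-like sequence, differed from the rest, with 2.36, 7.54 and 1.37 FPKM. Its ratio was 1.41 after interaction and 0.63 in the dual library, and in deposited FPKM it was lower in the dual library than alone. The cluster CL7108 had 4 contigs assigned to the fungus, of which 3 were members. They summed to 3.71, 7.79 and 17.2 FPKM, ratios of 0.92 and 3.54.

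After interaction, 1 of 30 T. fuciformis members was past 4-fold upward and 0 downward, while 2.43% and 1.07% of all unigenes of the fungus were. That member was Unigene18718, whose ratio of 2.22 depends on the pseudocount because it was listed at 0 alone. At 2-fold, 7 members were higher and 0 lower, against 10.4% and 5.26% of all unigenes. However, 6 of the 7 were below 1 FPKM alone, and of the 1515 unigenes of the fungus selected in that way 100% had a ratio above 0, 68.3% were past 2-fold upward and 18.9% past 4-fold. The median ratio of the 30 was 0.33, that of all unigenes -0.01. By class the median was 0.04 for Ty1/copia and 1.10 for Ty3/Tf2 (1.02 without Unigene18718), and the Ty3/Tf2-type members with a value alone lay between 0.30 and 1.41. The 7 Ty3/Tf2-type members below 1 FPKM alone had a median of 1.18, under the 1.41 of all 1515 unigenes selected in that way, and the 3 others had a median of 0.42. The 18 low members held the single one past 4-fold, against 3.9% of low unigenes. Of the 15 Ty1/copia-type members with at least 1 FPKM alone 9 had a ratio above 0, where 49% of all unigenes did. That 49% includes the 1515 unigenes below 1 FPKM alone, all of them above 0, so the 2 sets are unlike.

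Compared between the dual library and growth alone, 9 of 30 members were past 4-fold upward and 0 downward, against 4.98% and 3.56% of 14206 unigenes. All 9 were low members, of which there were 18, and 7.63% of the low unigenes of the fungus were past 4-fold upward. Of the 9, 8 were of Ty3/Tf2 type and 1 was Unigene9350. The median ratio was 0.40 over members and -0.17 over all unigenes, and by class -0.05 for Ty1/copia and 3.61 for Ty3/Tf2 (2.98 without Unigene18718). Selection through the interaction library bears on these counts too. Among the same 1515 unigenes, 21.1% were past 4-fold upward in the dual library, with a median of 0.40, and 73.3% of those that also reached 1 FPKM there. All 8 members selected in that way, Unigene9350 among them, were past 4-fold, with a median of 4.39. The 3 Ty3/Tf2-type members with at least 1 FPKM alone had dual ratios of 0.63, 1.72 and 2.36.

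The direction depended on the rescaling for Ty1/copia and not for most of Ty3/Tf2. In deposited FPKM 1 of 16 Ty1/copia-type members was higher in the dual library than alone, and 8 of 16 were after rescaling. For the Ty3/Tf2 type these numbers were 9 of 10 and 10 of 10. Of all 14206 unigenes 1289 were higher in deposited FPKM and 40.5% after rescaling. Among the 1515 selected through the interaction library 826 had a rescaled ratio above 0. Without rescaling the median of all T. fuciformis unigenes in the dual library was -1.42, that of Ty1/copia -1.20 and that of Ty3/Tf2 1.83. In a mixture of mycelia, a smaller share of cells with a transcript and less of it per cell cannot be told apart. The number of unigenes seen only in the dual library, given above, is also a feature of that library, and its part in the Ty3/Tf2 values was not tested.

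**Figure D2:**
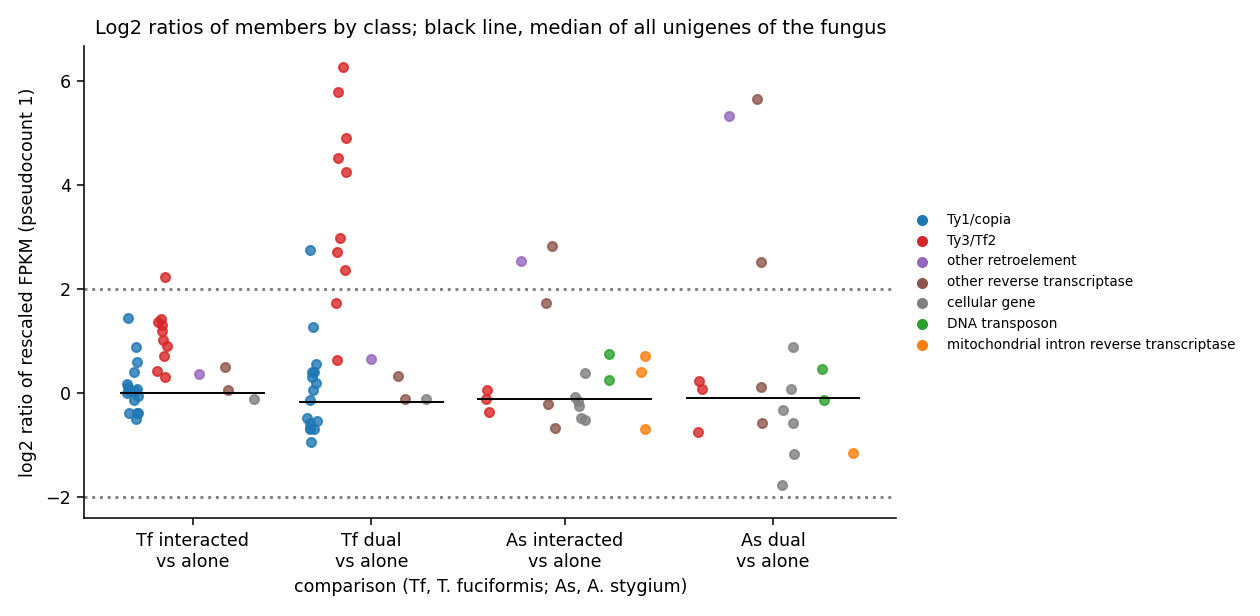
Log2 ratio of each member in 4 comparisons, by class, with 1 point per unigene. Black lines mark the median of all unigenes of the fungus, -0.01, -0.17, -0.13 and -0.10 from left to right, and dotted lines 4-fold. Points of Unigene18718 and CL6500.Contig1, listed at 0 alone, depend on the pseudocount. Ty3/Tf2-type points of T. fuciformis lie above the line in each of its comparisons, and in A. stygium 3 points lie above 4-fold in the dual library.

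The remaining T. fuciformis members differed little between libraries. Telomerase reverse transcriptase, Unigene12734, is a cellular enzyme that extends chromosome ends and not an element. It had 16.5 FPKM alone, 15.6 FPKM upon interaction and 5.22 FPKM in the dual library, with ratios of -0.11 in both comparisons. CL277.Contig8, named Gag-Pol with no sign of its family, had 12.9, 17.2 and 7.05 FPKM. The reverse transcriptases CL7677.Contig2 (4.76, 5.10 and 1.48 FPKM) and CL7677.Contig1 (1.42, 2.33 and 0.66 FPKM) rest on weak Nr hits, with e-values of 5.4e-07 and 5.8e-07.

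A further 17 members had no fungus. Of these, 11 were of Ty3/Tf2 type, and for 10 of the 11 the nearest Nr hit lay in Tremellomycetes. The highest was Unigene19193, a Tf2-like polyprotein with an integrase domain, listed at 0 in all 4 single-fungus libraries and at 9.81 FPKM in the dual library. CL5911.Contig1 had 0.05 FPKM in T. fuciformis alone, 0.14 FPKM upon interaction and 9.38 FPKM in the dual library, and was listed at 0 in A. stygium. Unigene18927 was listed at 0 alone, had 0.04 FPKM in T. fuciformis after interaction, and reached 6.97 FPKM in the dual library. CL1008.Contig2 belongs to the cluster of 2 members named above and had 0.25, 0.75 and 3.74 FPKM in the same order. All 10 members with a hit in Tremellomycetes were listed at 0 in both A. stygium libraries, and 9 of the 10 had their highest value in the dual library. The exception was Unigene18263, with 0.96 FPKM in T. fuciformis after interaction and 0 elsewhere. Because the 17 were selected for low values in the 4 single-fungus libraries, a highest value in the dual library is largely fixed by that selection.

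Together the 17 summed to 44.1 FPKM in the dual library, 0.50 FPKM in T. fuciformis alone, 2.51 FPKM after interaction, 1.81 FPKM in A. stygium alone and 2.98 FPKM after interaction. Of the 17, 10 reached 1 FPKM in the dual library, which is 58.8%. Of all 7676 unigenes that stayed below 1 FPKM in the single-fungus libraries, 43.8% did. The other members of this group were 3 reverse transcriptases of A. stygium mitochondrial introns, between 0 and 0.98 FPKM, Unigene20448, named after PEG10 with an Nr e-value of 2.6e-06 and at 1.68 FPKM in the dual library only, the reverse transcriptases Unigene10824 and Unigene10095, and the Ty3-like Unigene13447, with 0.74 FPKM in A. stygium alone and 0.86 FPKM after interaction.

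**Figure D3:**
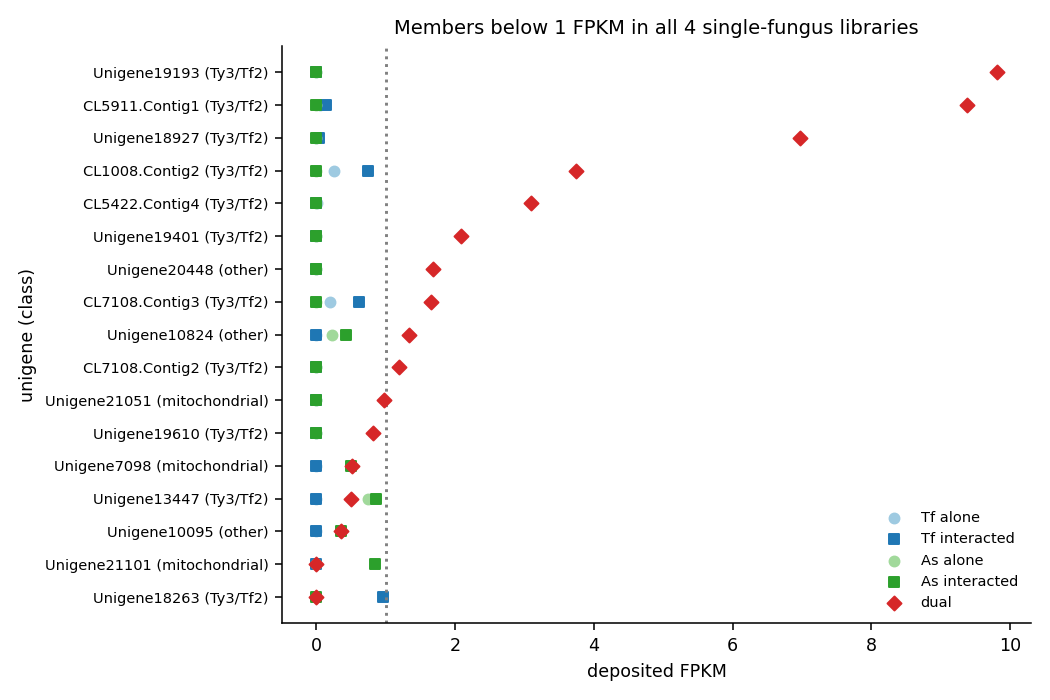
Deposited FPKM of the 17 members below 1 FPKM (dotted line) in all single-fungus libraries, with 1 row per unigene and 1 symbol per library. Symbols at the same value cover each other. The dual library (red) reached at least 1 FPKM in 10 rows, up to 9.81 FPKM, and 8 of these 10 are of Ty3/Tf2 type.

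In A. stygium most element sequences were near level. The largest ratios were those of 2 weakly annotated transcripts, of which Unigene10445 was assigned only through the interaction library. The 2 most abundant members of the study were Tf2-like polyproteins of this fungus. Unigene51, with a chromodomain signature, a module that in such integrases is known to bind modified histones, had 634 FPKM alone and 514 FPKM upon interaction, and in the dual library 256 FPKM. Its ratios were -0.36 and -0.76. CL8170.Contig2 had 347 FPKM alone, 374 FPKM upon interaction and 250.2 FPKM in the dual library, ratios of 0.05 and 0.08. The low member of this type, Unigene3878, had 5.03, 4.77 and 4.06 FPKM.

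The pair with the largest ratios was CL6500.Contig2, named reverse transcriptase, and Unigene10445, named pol polyprotein. CL6500.Contig2 had 1.54 FPKM alone and 14.7 FPKM upon interaction, and in the dual library 70.6 FPKM, ratios of 2.83 and 5.66. Unigene10445 had 0.42, 5.16 and 25.1 FPKM, ratios of 2.54 and 5.32. Both were lowest alone and highest in the dual library, also in deposited FPKM. Their hits were weak, with Nr e-values of 4.9e-06 and 5.3e-16 and no SwissProt, KOG or InterPro hit, so the names are uncertain. CL6500.Contig1, of the same cluster, was listed at 0 alone and had 1.24 and 1.68 FPKM. The cluster summed to 1.54, 15.9 and 72.3 FPKM. Unigene10445 and CL6500.Contig1 were below 1 FPKM alone and were assigned to the fungus only by reaching 1 FPKM after interaction. Their direction after interaction was thus fixed by their selection.

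Unigene1795, named reverse transcriptase with an Nr e-value of 4.9e-78, had 39.3, 35.4 and 17.8 FPKM, and CL8035.Contig5 had 1.12, 0.53 and 0.86 FPKM. The transposases CL4390.Contig1 (2.46, 4.68 and 2.43 FPKM) and CL4390.Contig2 (3.25, 4.09 and 1.98 FPKM) were the 2 DNA transposon sequences of the study. Their ratios after interaction were 0.75 and 0.24, and 0.46 and -0.14 in the dual library. The mitochondrial intron reverse transcriptases Unigene8828, Unigene5152 and Unigene5095, of a kind known to help introns of organelle genes to splice and spread, were between 0.26 and 1.5 FPKM in the 2 A. stygium libraries and the dual library. Unigene5152 also matched a subunit of NADH dehydrogenase.

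The rule also took cellular genes of A. stygium. Unigene1703, named after a tetracycline resistance protein from a transposon, carries the signature of flavoprotein monooxygenases and had 60.6, 56.9 and 27.4 FPKM. Telomerase reverse transcriptase, Unigene3387, had 6.68, 4.80 and 4.83 FPKM, ratios of -0.49 and 0.08. Unigene12436, a WD repeat protein like a yeast regulator of Ty1 transposition, had 10.7, 10.5 and 5.73 FPKM. The histone chaperone Rtt106, which places histones on new DNA and is named in Nr for negative regulation of transposition, had 3 contigs in the cluster CL4446, each with a KOG hit to a potassium channel subunit family as well. CL4446.Contig3 had 6.23, 4.35 and 1.0 FPKM and CL4446.Contig4 had 6.59, 5.71 and 1.80 FPKM, while CL4446.Contig5 had 3.99, 5.54 and 5.28 FPKM. Their dual ratios were -1.77, -1.17 and 0.87, but the 4 contigs of the cluster, 1 of which is described as an aldo-keto reductase, summed to a ratio of -0.18.

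**Figure D4:**
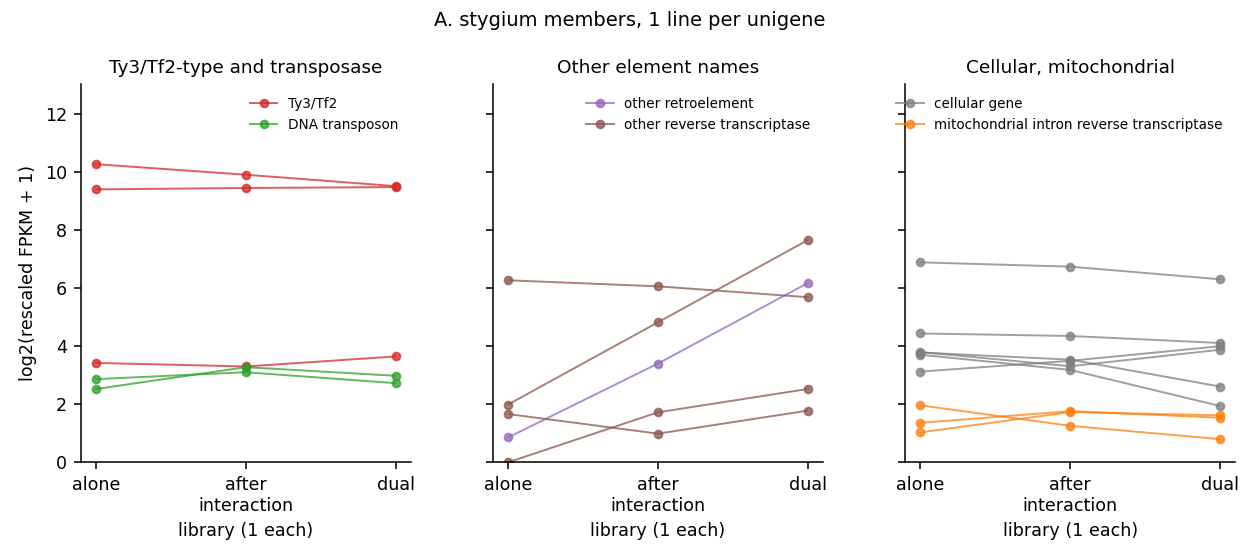
Level of each of the 19 A. stygium members in its 3 libraries, as log2 of rescaled FPKM plus 1. Each line is 1 unigene and each point 1 library. Most lines are flat, and CL6500.Contig2 and Unigene10445 in the middle panel run upward from alone to the dual library.

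Counted over members, 2 of 19 were past 4-fold upward after interaction and 0 downward, against 2.93% and 3.05% of all unigenes of A. stygium. For the dual library these counts were 3 of 17 and 0, against 3.9% and 4.98% of 17549 unigenes, and 1 of the 3 was CL6500.Contig1, which was listed at 0 alone. Unigenes below 1 FPKM alone that reached it in the library compared, as Unigene10445 and CL6500.Contig1 did, were past 4-fold upward in 24% of cases after interaction and 48.4% in the dual library. Over all 1837 unigenes of the fungus selected through the interaction library, whatever their dual value, the dual share was 18.9%. Of the 4 members selected in that way, 2 were past 4-fold upward in the dual library. The medians were -0.09 after interaction and 0.08 in the dual library, where those of all unigenes were -0.13 and -0.10. When members chosen by Nr alone had to have an Nr e-value of at most 1e-20, 0 members were past 4-fold upward in either comparison. Summed over the 3 Ty3/Tf2-type members the share of the fungus's FPKM was 0.190% alone, 0.165% after interaction and 0.144% in the dual library. Without rescaling the median of all A. stygium unigenes in the dual library was -0.55. Then 0 of the 3, and 3999 of all 17549 unigenes, were higher than alone. The dual comparisons of the 2 fungi use the same dual library, and each comparison within a fungus uses the same library grown alone.

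Genes of families known from other fungi to hold transposons down were taken by words in their names. Some of these words, such as histone deacetylase and chromodomain, are not limited to silencing, and a role in it was not shown for each gene. In T. fuciformis 22 such unigenes were found, 9 of them by the words histone deacetylase and 3 by those for heterochromatin protein or chromodomain. After interaction 22 of the 22 lay within 2-fold, where 84.3% of all unigenes of the fungus and 96.1% of its abundant unigenes did. In the dual library 21 of the 22 did and 1 was past 2-fold downward, where 12.6% of all unigenes of the fungus were past 2-fold upward and 13.2% downward. The most abundant was an argonaute, the protein that carries small RNAs to their targets, CL5741.Contig2, with 188, 185 and 50.2 FPKM alone, after interaction and in the dual library. A Dicer-like enzyme, which cuts double-stranded RNA into small RNAs, CL7777.Contig2, had 27.7, 34.4 and 7.40 FPKM. An RNA-dependent RNA polymerase, which makes the double strand, CL6819.Contig3, had 25.3, 33.8 and 11.8 FPKM, although its SwissProt hit is a cell wall stress component. A histone H3 lysine 9 methyltransferase, which marks heterochromatin, Unigene10773, had 28.7, 30.3 and 7.80 FPKM. After rescaling these 4 had dual ratios of -0.36, -0.35, 0.43 and -0.33. The histone deacetylase Unigene10510 had 51.0, 51.6 and 15.05 FPKM, with a dual ratio of -0.22. The chromodomain helicase CL989.Contig4 had 15.0, 16.4 and 7.97 FPKM, with a dual ratio of 0.61.

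In A. stygium 57 unigenes were found, 15 of them by the words histone deacetylase and 14 by those for heterochromatin protein or chromodomain. After interaction 4 of the 57 were past 2-fold upward and 6 downward, against 9.89% and 11.3% of all unigenes, with a median of -0.30. Of 55 measured in the dual library 3 were past 2-fold upward and 11 downward, against 11.9% and 14.8%, with a median of -0.20. Past 4-fold were 3 upward and 1 downward after interaction, against 2.93% and 3.05% of all unigenes. In the dual library these were 3 and 5 of the 55, against 3.9% and 4.98%. Ratios ran from -3.72 to 3.51 after interaction and from -4.09 to 4.65 in the dual library. The RNA-dependent RNA polymerase Unigene10839 had 68.1, 34.4 and 18.8 FPKM, ratios of -1.03 and -1.29. An argonaute like QDE-2 of Neurospora, CL7523.Contig2, had 460.0, 336 and 155 FPKM, ratios of -0.51 and -1.01, although its SwissProt hit is an RNA helicase. The RecQ helicase Unigene1005, of a family that unwinds DNA, had 96.6, 104 and 30.6 FPKM, ratios of 0.05 and -1.10. The Dicer-like CL2073.Contig2 had 18.4, 16.7 and 11.9 FPKM, and the heterochromatin protein CL154.Contig2 had 34.9, 45.0 and 23.1 FPKM, each within 2-fold. A DNA methyltransferase named after DIM-2, known from Neurospora, Unigene7372, had 1.40, 0.96 and 0.97 FPKM. The histone H3 lysine 9 methyltransferase CL1022.Contig2 had 20.4, 15.7 and 8.72 FPKM, ratios of -0.43 and -0.65. The histone deacetylase Unigene9707 had 42.0, 31.85 and 24.5 FPKM, ratios of -0.45 and -0.22. The centromere-binding protein Unigene3931 had 27.5, 22.2 and 15.6 FPKM, ratios of -0.36 and -0.26.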

How the data were processed

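The authors deposited 1 table of FPKM values per unigene and library with hits in Nr, SwissProt, KOG, InterPro and other databases, per the file headers. Which assembler and aligner were used was not given in the sources used here. RNA was extracted with Trizol, per the labels' protocols. The 5 libraries were placed by source name, and 0 columns of values were left unmapped. Members, classes and lists were chosen with earlier results of these data known. The words for the Ty1/copia and Ty3/Tf2 classes were completed after the table was seen. They used names in either hit at any e-value and InterPro families. Ratios were computed with Python 3.11.15 and pandas 2.3.3, and the method was tested on simulated data. The simulated unigenes had at least 5 FPKM alone and planted changes beyond 4-fold. Members below 5 FPKM alone, among them all Ty3/Tf2-type members of T. fuciformis, lay outside that range, so the simulation does not cover them. Members named first were the 10 with the highest mean FPKM in each fungus and those with the largest ratios in each comparison, up to 5 with at least 10 FPKM and up to 3 with less in each direction, together with cellular genes and, for members with no fungus, the 3 highest in the dual library. Most others are described too, chosen after their values were seen. For genes of silencing, the most abundant unigene was named for each search word that had a hit in a fungus. Repeated copies and contigs of a cluster can share reads. The table holds no sequence letters or lengths, and none were used here. Alternatives covered the pseudocount, rescaling, filter, summing of contigs, assignment and choice of members.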

Additional observations from a re-analysis of the deposited data

Results flagged for a closer look

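The summed level of Ty3/Tf2-type members in the dual library relative to the library grown alone had opposite signs in the 2 fungi. It was 4.99 on the log2 scale in T. fuciformis, over 10 members, and -0.40 in A. stygium, over 3 members. The sign in A. stygium was that of its most abundant member, Unigene51, with a ratio of -0.76. CL8170.Contig2 and Unigene3878 had ratios of 0.08 and 0.22, and the median of the 3 was 0.08. The 2 sets were selected unlike each other: 7 of the 10 were below 1 FPKM alone and were assigned only through the interaction library, while the 3 of A. stygium were above it. The 3 members of T. fuciformis with at least 1 FPKM alone had ratios of 0.63 to 2.36 and a summed ratio of 2.0. With 1 library for each condition this difference was not tested.

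Members below 1 FPKM in all 4 single-fungus libraries, which enter no comparison, summed to 44.1 FPKM in the dual library. Their sums in the other 4 libraries were between 0.50 and 2.98 FPKM. These members were selected for low values in those 4 libraries, which largely fixes the direction. Of them 58.8% reached 1 FPKM in the dual library, against 43.8% of all 7676 unigenes selected in that way.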

How the results depend on the processing

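With 1 library for each condition there was no spread between replicates, so a value was counted as moved when it differed by over 1.5-fold. Of 196 recomputed values 166 stayed within this and 30 moved. Of the 84 recomputed medians and summed ratios 12 changed sign, 3 of which are among those that moved and are given below. None of the medians and sums over all members of a fungus was 2-fold or more from level, so their signs are not firm. Summed levels involve no pseudocount or filter, so those settings gave no value there. No paired analysis was possible because each group had 1 library. The alternatives an Nr e-value of at most 1e-20 and the addition of unigenes with a hit to the KOG class of transposon-encoded proteins, were chosen after seeing the data. The limit on the Nr e-value was applied to members chosen by Nr alone, and all members chosen by SwissProt were kept.

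After interaction 1 T. fuciformis member was at least 4-fold higher. This count was 6 with a pseudocount of 0.1 and with the KOG class added, 7 at 2-fold, and 0 with a pseudocount of 10, without rescaling, with at least 10 FPKM required, with assignment on the libraries grown alone and with SwissProt hits only. The count at least 4-fold lower was 1 with the KOG class added. For the dual library the count of 9 became 3 with a pseudocount of 10, 5 without rescaling, 2 with at least 10 FPKM required, 1 with assignment on the libraries grown alone and 4 with SwissProt hits only. Those at least 4-fold lower numbered 3 without rescaling and 1 with the KOG class added. The median of 0.40 was -0.85 without rescaling. The log2 ratio of the summed level, 0.07, was -1.48 without rescaling and 1.16 with SwissProt hits only.

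In A. stygium 2 members were at least 4-fold higher after interaction. The count was 1 with at least 10 FPKM required or with assignment on the libraries grown alone. It was 0 with a pseudocount of 10, with SwissProt hits only or with the limit of 1e-20 on the Nr e-value. For the dual library the count of 3 was 1 with assignment on the libraries grown alone. It was 0 with SwissProt hits only or with the limit of 1e-20 on the Nr e-value. The count at least 4-fold lower, 0, was 1 with a pseudocount of 0.1 and 3 at 2-fold. The log2 ratio of the summed level, -0.19, was 0.82 with Nr hits only. Assignment on the libraries grown alone left out members below 1 FPKM there, and stricter member rules left fewer members; the cause of the other moves was not tested. The number of reads is unknown, so no floor could be given for a value of 0.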

Other observations

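Beyond the members, 59 unigenes had a hit to the KOG class of transposon-encoded proteins without a matching SwissProt or Nr name, 51 of them in T. fuciformis. After interaction 5 of the 51 were past 4-fold upward and 1 downward, against 2.43% and 1.07% of all unigenes of the fungus. Their median log2 ratio was 0.04. Among unigenes below 1 FPKM alone the upward share was 18.9%, and the 5 were not divided by their level alone. Of the 42 measured in the dual library 1 was past 4-fold upward and 1 downward, against 4.98% and 3.56% of all unigenes. The median of the 42 was -0.06. These unigenes were examined after the members' values had been seen.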
